A study of Mus musculus with 12 samples.

Results

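Nearly all mitochondrial proteins are made in the cytosol and have to be imported, so the import machinery is needed wherever a cell enlarges its mitochondria. Precursors enter through the TOM complex of the outer membrane and are then sorted by SAM into the outer membrane, by MIA and the small TIM chaperones through the intermembrane space, by TIM22 into the inner membrane, or by TIM23 and its PAM motor into the matrix, where peptidases remove their targeting signals. White adipocytes of the inguinal depot (iWAT) gain mitochondria and the uncoupling protein UCP1 when mice are kept in the cold, a process called browning. The genes described here are those with symbols of the form Timm or Tomm followed by a number, together with 13 named partners (Grpel1, Grpel2, Dnajc19, Pam16, Pmpca, Pmpcb, Samm50, Mtx1, Mtx2, Chchd4, Gfer, Immp1l and Immp2l). The rule found 35 genes among 14159 listed genes, and all 35 passed the filter on low values, as did 13404 genes in all.

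Polyadenylated RNA of iWAT was sequenced from 4 groups of 3 libraries, labelled as biological replicates 0, 1 and 2. Atf4WT mice carried floxed Atf4 alleles (Atf4 fl/fl) without Cre, and their littermates Atf4AKO carried the same alleles with Adipoq-Cre, which is active in adipocytes, so other cells of the depot keep the gene. Mice of each genotype were held at room temperature (RT, 22 °C) or spent 24 h at 5 °C, all on a C57BL/6 background, and their age is not given for these samples in the sources used here. The comparisons ask how the import genes responded to cold in each genotype, and whether loss of ATF4, a transcription factor of the integrated stress response, changed their level or their response. Values are normalized counts, meaning the reads of a gene divided by the size factor of the library, from libraries with 25719476 to 29105147 reads on the listed genes.

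The labels and the tissue were checked first. For Atf4, the counts were 5669, 4670.3 and 4107 (RT) and 7644, 7511 and 5756 (cold) in Atf4WT mice, against 1594, 1469.7 and 1639 (RT) and 1578, 788 and 1179.8 (cold) in Atf4AKO mice. All Atf4AKO libraries lay below all Atf4WT libraries. Ucp1 ranged from 204 to 1097 at RT and from 73632 to 119558 after cold, with no overlap. White adipocyte markers had a mean log2 value between 15.42 and 16.03 in every library. Markers of 7 muscle genes averaged 12.65 in Atf4WT RT replicate 2, 11.10 in Atf4WT cold replicate 0 and 7.96 in Atf4AKO cold replicate 1, against 3.40 to 4.84 in the other 9 libraries. Markers of B cells (12 genes) averaged 8.62 to 10.40 in the Atf4WT cold libraries and 8.65 in Atf4WT RT replicate 2, against 3.32 to 5.97 elsewhere, and 15 T cell markers averaged 8.92 and 9.19 in Atf4WT cold replicates 1 and 2, against 3.78 to 6.08 elsewhere. The mean of 5 macrophage markers was 9.45 in Atf4WT cold replicate 1 and 8.67 in Atf4AKO cold replicate 1, against 10.98 to 11.95 elsewhere. The counts and medians over the import genes are also given below without the 3 libraries with raised muscle markers.

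Promoter sequence is shown first for genes that recur below. RefSeq promoter windows of 250 bases before to 50 bases after the start (GRCm38.p6) were matched for 31 of the 35 genes, not for Timm21, Grpel2, Tomm7 or Tomm40l. Each was searched on both strands for CCGGAAG (the core bound by GABPA), GCATGCGC (NRF1), AAGGTCA (estrogen-related receptors), TGACGTCA (the cAMP response element) and TGATGNAAT (ATF4). No motif overlapped another on the stretches shown, except that Tomm22 holds CCGGAAG on each strand at the same place. The following stretches end just before the outermost annotated start of the gene, on the strand of the gene, with motif matches in capitals. Timm8b, Timm23, Tomm22 and Grpel1 show matches in genes that are described below, and Timm17a and Timm17b are the paralogs whose responses differed.
Timm8b, chr9:50603791-50603900 (+): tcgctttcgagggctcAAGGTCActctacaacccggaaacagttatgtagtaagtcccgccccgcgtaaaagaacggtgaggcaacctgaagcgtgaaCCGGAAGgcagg
Timm23, chr14:32201899-32201958 (-): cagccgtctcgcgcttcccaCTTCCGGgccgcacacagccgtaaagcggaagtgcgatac
Tomm22, chr15:79670801-79670860 (+): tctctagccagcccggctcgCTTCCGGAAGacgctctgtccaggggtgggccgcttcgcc
Grpel1, chr5:36464938-36464997 (+): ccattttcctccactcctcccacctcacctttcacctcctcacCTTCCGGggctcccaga
Timm17a, chr1:135313779-135313838 (-): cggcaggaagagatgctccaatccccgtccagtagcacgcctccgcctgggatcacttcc
Timm17b, chrX:7899276-7899335 (+): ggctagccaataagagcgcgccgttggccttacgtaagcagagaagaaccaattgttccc

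CCGGAAG was present in the windows of 12 of the 31 import genes (38.7%), against 18.1% of the 11234 listed genes that have a window and 8.86% of all 32851 windows. The 12 were Grpel1, Mtx1, Mtx2, Pmpca, Pmpcb, Timm10, Timm23, Timm29, Timm8b, Tomm22, Tomm34 and Tomm70a, which include genes that rose after cold and genes that did not. AAGGTCA was found in 3 (Timm23, Timm44 and Timm8b, 9.68%, against 3.97% of listed genes), and GCATGCGC in 2 (Grpel1 and Timm13, 6.45%, against 5.47%). The AAGGTCA of Timm23 overlaps a CCGGAAG downstream of the RefSeq start, outside the stretch shown. The GCATGCGC of Grpel1 also lies outside its stretch. TGACGTCA and TGATGNAAT were found in 0 of the 31 windows, against 3.28% and 0.614% of the listed genes. These are matches of letters and were not tested.

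After cold, most genes of the import machinery were higher in iWAT of both genotypes. A gene was called when its fold change was over 1.5 in either direction and its unadjusted limma p-value was under 0.05. In Atf4WT mice 21 of the 35 genes were called higher after cold, against 10.9% of all tested genes. In the same comparison 0 were called lower, against 1387 of 13404 tested genes. In Atf4AKO mice the count was again 21 higher, against 8.3% of all genes, and 0 lower, against 1196 of 13404. Of the 35 import genes, 20 were called in both genotypes. The median log2 fold change of the 35 genes was 0.70 in Atf4WT and 0.68 in Atf4AKO, where the medians of all tested genes were 0.0026 and -0.032. With a Benjamini-Hochberg adjusted p under 0.05 at any fold, 28 were higher in Atf4WT (17% of all genes) and 26 in Atf4AKO (14.8%). At that threshold 0 were lower in either genotype, against 2000 of 13404 genes in Atf4WT and 1479 in Atf4AKO. Without overlap between the cold and RT libraries, 27 were higher in Atf4WT (23.9% of all genes) and 31 in Atf4AKO (21.7%). In the other direction, 0 and 1 (Immp2l) were lower without overlap, against 3069 and 2672 of 13404 genes. Without the 3 libraries with raised muscle markers, 16 genes were called in Atf4WT and 18 in Atf4AKO, all higher, with medians of 0.49 and 0.62. With the mean of the muscle markers as a covariate, 21 genes were called in each genotype, all higher, with medians of 0.70 and 0.68. With the mean of B and T cell markers as a covariate the counts were 28 in Atf4WT, of which 1 (Tomm34) was lower, and 20 in Atf4AKO. Shares of all genes were not taken for the fits without these libraries or with a covariate. The shares of 10.9% and 8.3% are therefore not their background. In whole tissue, a change in the share of a cell type and a change of RNA per cell cannot be told apart.

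**Figure D1:**
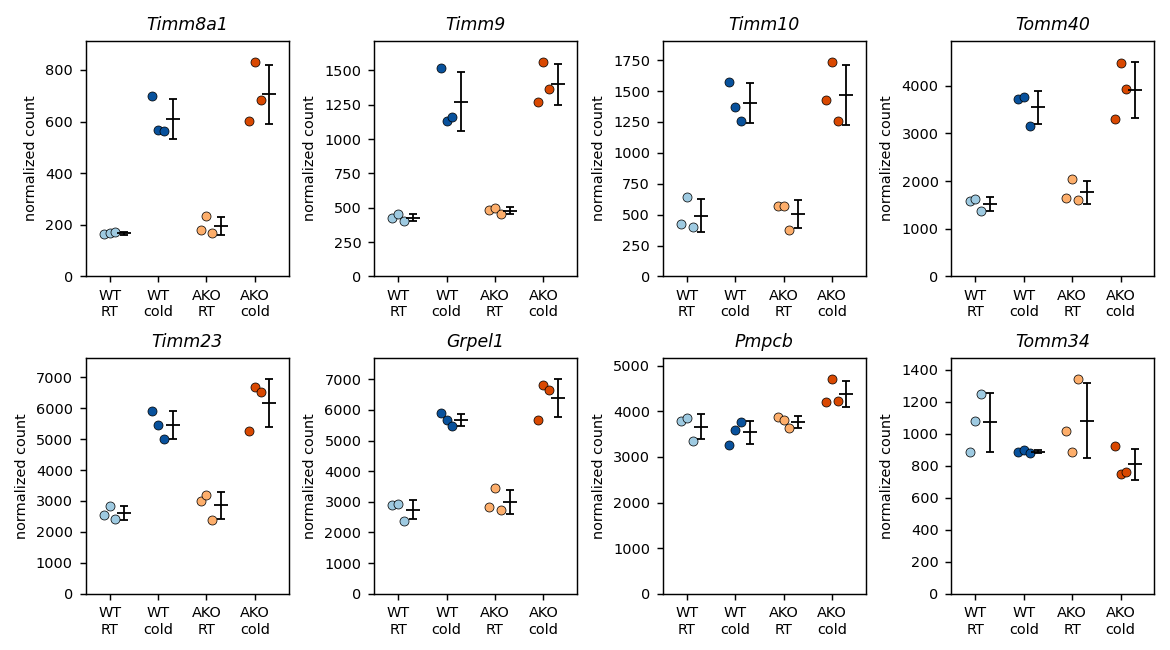
Normalized counts (vertical axis, from 0) of 8 import genes in the 12 libraries by genotype and temperature. Points are single libraries and the bars beside them give mean ± SD of 3 libraries. For Timm8a1, Timm9, Timm10, Tomm40, Timm23 and Grpel1 every cold library lay above every RT library, whereas Pmpcb and Tomm34 overlapped between RT and cold in Atf4WT.

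The small TIM chaperones, which escort hydrophobic precursors across the intermembrane space, held the 3 largest responses among the 35 genes. Timm8a1 lies at chrX:134537256-134541865 on the minus strand of mm10 in GENCODE vM21. The Timm8a1 counts of the Atf4WT libraries were 163, 166 and 173 at RT and 701, 569 and 564 after cold, and those of the Atf4AKO libraries were 179, 236 and 169.8 and 603, 829.9 and 682. Its lowest cold library was above its highest RT library in both genotypes. The log2 fold change (± SE) was 1.85 ± 0.16 in Atf4WT (adjusted p = 4.60e-05) and 1.85 ± 0.16 in Atf4AKO (adjusted p = 4.71e-05), that is 3.62-fold and 3.61-fold. Timm9 and Timm10 form a hexameric chaperone for carrier precursors, and lie at chr12:71123173-71136684 (-) and chr2:84826997-84830213 (+). Timm9 read 426, 457 and 403 at RT and 1519, 1133 and 1163 after cold in Atf4WT iWAT, and 483, 501 and 456 at RT and 1268, 1559 and 1367 after cold in Atf4AKO iWAT. For Timm10, the counts were 425, 645 and 403 (RT) and 1577, 1374 and 1254 (cold) in Atf4WT mice, against 571, 574 and 378 (RT) and 1425, 1733 and 1255 (cold) in Atf4AKO mice. Again no cold library overlapped an RT library. Their log2 fold changes were 1.55 ± 0.12 in Atf4WT (adjusted p = 3.25e-05) and 1.54 ± 0.12 in Atf4AKO (adjusted p = 3.28e-05) for Timm9, and 1.54 ± 0.21 in Atf4WT (adjusted p = 5.54e-04) and 1.55 ± 0.21 in Atf4AKO (adjusted p = 6.11e-04) for Timm10. Timm8b and Timm13, the other members of the group, had smaller changes. The Timm8b counts of the Atf4WT libraries were 1318, 1672 and 1317 at RT and 3049, 2856 and 2406 after cold, and those of the Atf4AKO libraries were 1672, 1699.7 and 1547 and 2517, 3549.8 and 2600.2. Timm13 read 2610.2, 2502 and 1389.8 at RT and 4268, 4081 and 3119 after cold in Atf4WT iWAT, and 2658, 2846 and 2504 at RT and 3484, 4331 and 3314 after cold in Atf4AKO iWAT. The Timm13 count of 1390 in Atf4WT RT replicate 2, a library with raised muscle and B cell markers, stood below the other RT counts. Timm8b changed by 0.95 ± 0.14 in Atf4WT (adjusted p = 9.04e-04) and 0.80 ± 0.14 in Atf4AKO (adjusted p = 0.00268). Timm13 changed by 0.86 ± 0.22 in Atf4WT (adjusted p = 0.0121) and 0.47 ± 0.22 in Atf4AKO (adjusted p = 0.134), so it was called in Atf4WT only, but the difference between its responses was -0.39 ± 0.31 (limma, adjusted p = 0.989). Its change in Atf4WT was 0.57, no longer called, when Atf4WT RT replicate 2 was left out.

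In the TOM complex, the channel, 2 receptors and 1 small subunit were called higher in both genotypes. Tomm40 is the channel itself (chr7:19701313-19715438, minus strand). For Tomm40, the counts were 1579, 1632 and 1362 (RT) and 3729.9, 3759 and 3150.1 (cold) in Atf4WT mice, against 1649, 2037 and 1597 (RT) and 3301, 4478 and 3929 (cold) in Atf4AKO mice. Every cold library lay above every RT library, and the change was 1.22 ± 0.13 in Atf4WT (adjusted p = 1.44e-04) and 1.15 ± 0.13 in Atf4AKO (adjusted p = 2.61e-04). Tomm5, a small subunit, responded to a similar size. The Tomm5 counts of the Atf4WT libraries were 975, 1045 and 998 at RT and 2729, 2221 and 2011 after cold, and those of the Atf4AKO libraries were 1092, 1092 and 1060.4 and 2229, 2740.2 and 1981. Its change was 1.19 ± 0.13 in Atf4WT (adjusted p = 1.25e-04) and 1.09 ± 0.13 in Atf4AKO (adjusted p = 2.69e-04), while those of the other small subunits were smaller: 0.55 and 0.22 for Tomm6, of which neither was called, and 0.17 and 0.08 for Tomm7, with adjusted p of 0.337 and 0.697. The receptors Tomm70a and Tomm20 were called in both genotypes, Tomm20 with less margin. Tomm70a read 2436, 2515 and 2072 at RT and 4139.8, 3689 and 3767 after cold in Atf4WT iWAT, and 2491, 2823 and 2265 at RT and 4194, 4406 and 4016 after cold in Atf4AKO iWAT. For Tomm20, the counts were 2731, 2673 and 2284 (RT) and 3996, 4008 and 3574 (cold) in Atf4WT mice, against 2712, 2802 and 2447 (RT) and 3992, 4597 and 3907 (cold) in Atf4AKO mice. Cold and RT libraries of both receptors were separate. The changes were 0.73 ± 0.10 in Atf4WT (adjusted p = 5.54e-04) and 0.74 ± 0.10 in Atf4AKO (adjusted p = 5.73e-04) for Tomm70a, and 0.59 ± 0.10 in Atf4WT (adjusted p = 0.00132) and 0.65 ± 0.10 in Atf4AKO (adjusted p = 0.00101) for Tomm20, whose value in Atf4WT sat just above the fold threshold. Tomm20 was under the fold of 1.5 in Atf4WT in edgeR (0.57), with 75th percentile scaling (0.57), without Atf4WT RT replicate 2 (0.51), cold replicate 0 (0.57) or cold replicate 1 (0.56), and without the 3 libraries with raised muscle markers (0.49). In Atf4AKO it was under that fold without cold replicate 1 (0.58). The receptor Tomm22 changed by 0.56 and 0.51, past an adjusted p of 0.05 in both genotypes (0.00224 and 0.00409) but under the fold of 1.5. Tomm34, a cytosolic co-chaperone named with the TOM genes but not part of the complex, changed by -0.26 and -0.40, with adjusted p of 0.244 and 0.0885.

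In the presequence translocase TIM23, 3 of 5 genes responded. Timm23, the channel-forming subunit (chr14:32180162-32201898, minus strand), Timm17a and Timm50, the receptor that hands precursors on, were called higher in both genotypes. The Timm23 counts of the Atf4WT libraries were 2542, 2851 and 2427 at RT and 5911, 5466 and 4999 after cold, and those of the Atf4AKO libraries were 2996, 3198 and 2368 and 5267, 6685 and 6522. Timm50 read 2471, 2550.2 and 1884 at RT and 3956, 3649 and 3343 after cold in Atf4WT iWAT, and 2505, 2752 and 2266 at RT and 3466, 4287 and 4291 after cold in Atf4AKO iWAT. None of these cold libraries fell within the range of its RT libraries. Timm23 changed by 1.07 ± 0.13 in Atf4WT (adjusted p = 2.76e-04) and 1.11 ± 0.13 in Atf4AKO (adjusted p = 2.61e-04) and Timm50 by 0.67 ± 0.13 in Atf4WT (adjusted p = 0.00359) and 0.68 ± 0.13 in Atf4AKO (adjusted p = 0.00418). Timm50 was under the fold of 1.5 in Atf4WT without RT replicate 2 (0.54) and without the 3 libraries with raised muscle markers (0.48). Timm21, which links TIM23 to TOM and to the respiratory chain, changed by 0.08 and 0.24, with adjusted p of 0.472 and 0.0524, and Timm17b is given with its paralog below. The carrier translocase TIM22 was measured by its channel Timm22 and by Timm29. For Timm22, the counts were 663, 823 and 656 (RT) and 1660.0, 1605 and 1288 (cold) in Atf4WT mice, against 718, 810.5 and 678 (RT) and 1424, 1797 and 1477 (cold) in Atf4AKO mice. Timm22 changed by 1.09 ± 0.13 in Atf4WT (adjusted p = 3.27e-04) and 1.09 ± 0.13 in Atf4AKO (adjusted p = 3.61e-04), whereas Timm29 changed by 0.39 and 0.50, past the adjusted threshold (0.0328 and 0.0136) but under the fold of 1.5.

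All 5 genes of the PAM motor, which pulls precursors into the matrix with mitochondrial Hsp70, were called in both genotypes. Grpel1 exchanges the nucleotide of that Hsp70. The Grpel1 counts of the Atf4WT libraries were 2895, 2928 and 2381 at RT and 5884, 5657 and 5479 after cold, and those of the Atf4AKO libraries were 2839.8, 3455 and 2724 and 5675, 6816 and 6648. The cold libraries were all above the RT libraries, with a change of 1.06 ± 0.11 in Atf4WT (adjusted p = 1.29e-04) and 1.09 ± 0.11 in Atf4AKO (adjusted p = 1.30e-04). Timm44 tethers Hsp70 to the channel. Timm44 read 2058, 2145 and 2004 at RT and 4182, 3939 and 3784 after cold in Atf4WT iWAT, and 1979.9, 2383 and 2282 at RT and 3813, 4876 and 4170.0 after cold in Atf4AKO iWAT. Its change was 0.94 ± 0.10 in Atf4WT (adjusted p = 1.21e-04) and 0.95 ± 0.10 in Atf4AKO (adjusted p = 1.31e-04). The J-domain protein Dnajc19 and its J-like partner Pam16 rose less. For Dnajc19, the counts were 893, 954 and 786 (RT) and 1462, 1384 and 1163 (cold) in Atf4WT mice, against 943, 907 and 846 (RT) and 1363, 1604 and 1389 (cold) in Atf4AKO mice. The Pam16 counts of the Atf4WT libraries were 996, 959 and 897 at RT and 1705, 1637 and 1312 after cold, and those of the Atf4AKO libraries were 1035, 1080.3 and 1042 and 1553, 1877 and 1573. Their cold and RT libraries did not overlap either, and the log2 fold changes were 0.60 and 0.69 for Dnajc19 and 0.70 and 0.66 for Pam16. Without the libraries with raised muscle markers, Dnajc19 (0.46) and Pam16 (0.58) were under the fold of 1.5 in Atf4WT, and Pam16 was under it in Atf4AKO too (0.57), as it was without Atf4AKO cold replicate 1 alone. Dnajc19 was also under it in Atf4WT with 75th percentile scaling (0.58) and without RT replicate 2 (0.53), cold replicate 0 (0.54) or cold replicate 1 (0.58).

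In the outer membrane and the intermembrane space, the responses were of middle size. Samm50 inserts beta-barrel proteins, Mtx1 and Mtx2 are its metaxin partners, Chchd4 oxidizes cysteines of imported proteins and Gfer re-oxidizes Chchd4. Samm50 read 4388, 3761 and 3568 at RT and 7421, 7902 and 7024 after cold in Atf4WT iWAT, and 3639, 4686 and 4414 at RT and 6445, 9107 and 8281 after cold in Atf4AKO iWAT. For Mtx2, the counts were 1428, 1649 and 1256 (RT) and 2816, 2646 and 2487 (cold) in Atf4WT mice, against 1483, 1588 and 1366 (RT) and 2714, 3148 and 2801 (cold) in Atf4AKO mice. The Chchd4 counts of the Atf4WT libraries were 749.7, 749.7 and 649 at RT and 1489.5, 1457 and 1196 after cold, and those of the Atf4AKO libraries were 745, 889 and 789 and 1421, 1612 and 1394. These were called in both genotypes with no overlap between cold and RT. Samm50 changed by 0.94 ± 0.14 in Atf4WT (adjusted p = 7.88e-04) and 0.90 ± 0.14 in Atf4AKO (adjusted p = 0.00118), Mtx2 by 0.88 ± 0.11 in Atf4WT (adjusted p = 2.74e-04) and 0.96 ± 0.11 in Atf4AKO (adjusted p = 1.89e-04), and Chchd4 by 0.94 ± 0.11 in Atf4WT (adjusted p = 2.42e-04) and 0.87 ± 0.11 in Atf4AKO (adjusted p = 4.42e-04). Mtx1 changed by 0.41 and 0.46 and Gfer by 0.57 and 0.58, both past the adjusted threshold in each genotype and under the fold of 1.5.

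The processing peptidases were not called in either genotype. Pmpca and Pmpcb, the subunits of the matrix processing peptidase, changed by 0.10 and 0.21 and by -0.05 and 0.21, with adjusted p from 0.0785 to 0.682. Immp1l and Immp2l are subunits of the inner membrane peptidase, and their changes were 0.27 and 0.41 for Immp1l (adjusted p = 0.0376 and 0.00639) against -0.38 and -0.35 for Immp2l (adjusted p = 0.0543 and 0.085).

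**Figure D2:**
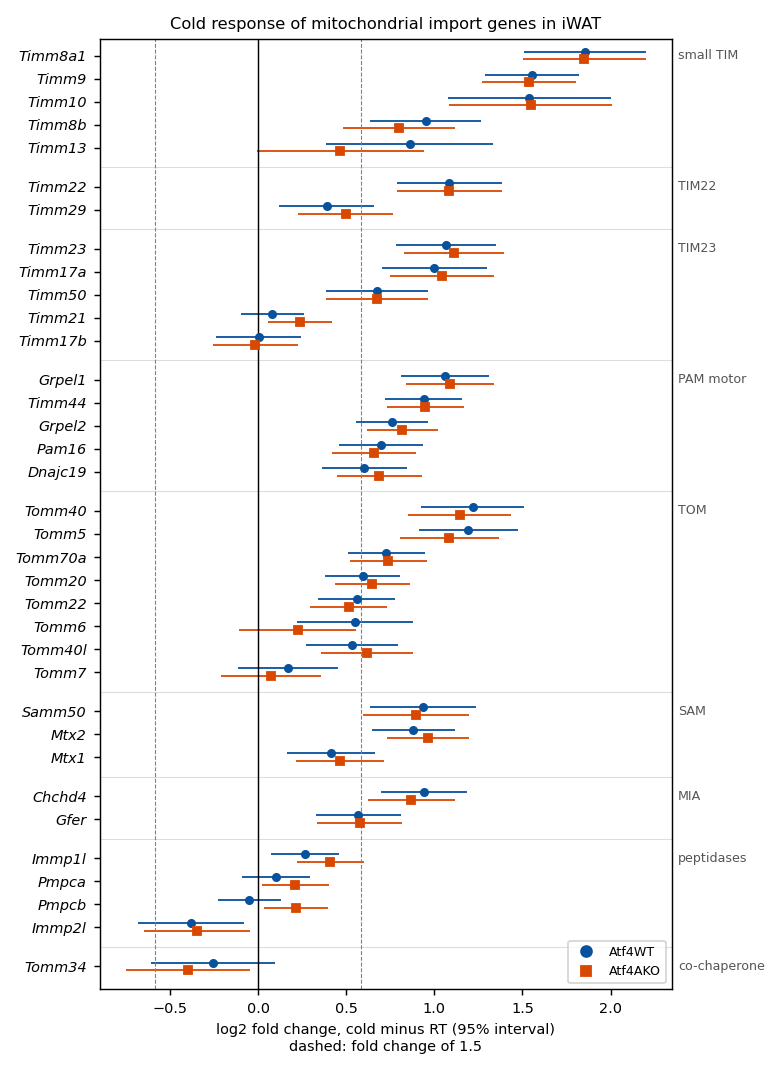
Log2 fold change of cold against RT (horizontal axis) with its 95% interval from limma for all 35 import genes, grouped by role, in Atf4WT (circles) and Atf4AKO (squares). Dashed lines mark a fold change of 1.5. The small TIM genes reach 1.85, the peptidases and Tomm34 lie at or below 0.41, and the values of the genotypes lie close together for most genes.

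Paralogs within the machinery were compared as ratios inside each library, which do not depend on the scaling between libraries, with an exact two-sided permutation test of cold against RT within genotypes (400 arrangements, smallest possible p = 0.005, adjusted over 4 pairs). The pairs were chosen with earlier results of these data known, so these p-values are no independent support. A p at that floor does not rank the pairs by the size of their change. Timm17a and Timm17b are alternative subunits of TIM23. Timm17a read 2265, 2649 and 2006 at RT and 4959.5, 4834 and 4026 after cold in Atf4WT iWAT, and 2485, 2739 and 2106 at RT and 4456, 5576 and 5049 after cold in Atf4AKO iWAT. For Timm17b, the counts were 730.4, 623 and 618 (RT) and 668, 714 and 594 (cold) in Atf4WT mice, against 673, 818 and 686 (RT) and 674, 737 and 737 (cold) in Atf4AKO mice. Timm17a separated by temperature in each genotype, Timm17b did not. The Timm17a change was 1.00 ± 0.14 in Atf4WT (adjusted p = 5.27e-04) and 1.04 ± 0.14 in Atf4AKO (adjusted p = 4.78e-04), and that of Timm17b was 0.0032 ± 0.11 and -0.015 ± 0.11. The ratio of Timm17a to Timm17b was 3.07 to 4.26 at RT and 6.61 to 7.57 after cold, and its log2 value rose by 1.03 (p = 0.005, adjusted p = 0.005 by the exact test), by 1.00 in Atf4WT and by 1.06 in Atf4AKO. Timm8a1 was the minor paralog at RT, at 0.0996 to 0.139 of the Timm8b count, and reached 0.199 to 0.262 after cold, a log2 rise of 0.98.

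The Grpel2 counts of the Atf4WT libraries were 524, 557 and 486 at RT and 899.9, 895 and 856 after cold, and those of the Atf4AKO libraries were 510.3, 556 and 542 and 900.3, 1057 and 886. The ratio of Grpel1 to Grpel2 was 4.90 to 6.22 at RT and 6.30 to 7.50 after cold, a log2 rise of 0.28, although Grpel2 itself rose, by 0.76 ± 0.09 in Atf4WT (adjusted p = 2.76e-04) and 0.82 ± 0.09 in Atf4AKO (adjusted p = 2.12e-04). Tomm40l read 1759, 1699 and 1493 at RT and 2606, 2465 and 2096 after cold in Atf4WT iWAT, and 1712, 1803 and 1704 at RT and 2280.0, 3104 and 2697 after cold in Atf4AKO iWAT. The ratio of Tomm40 to its paralog Tomm40l was 0.898 to 1.13 at RT and 1.43 to 1.53 after cold, a log2 rise of 0.61. Each of these 3 further pairs had the smallest p the exact permutation test allows (p = 0.005, adjusted p = 0.005), and in all 4 pairs the RT and cold ratios did not overlap within a genotype. Tomm40l changed by 0.53 and 0.62 and was called in Atf4AKO only, but the difference of its responses was 0.09 ± 0.17 (limma, adjusted p = 0.996). Its call in Atf4AKO was lost with 75th percentile scaling, with the lymphocyte covariate, and without the libraries with raised muscle markers. Leaving out Atf4AKO cold replicate 1 alone also removed that call.

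**Figure D3:**
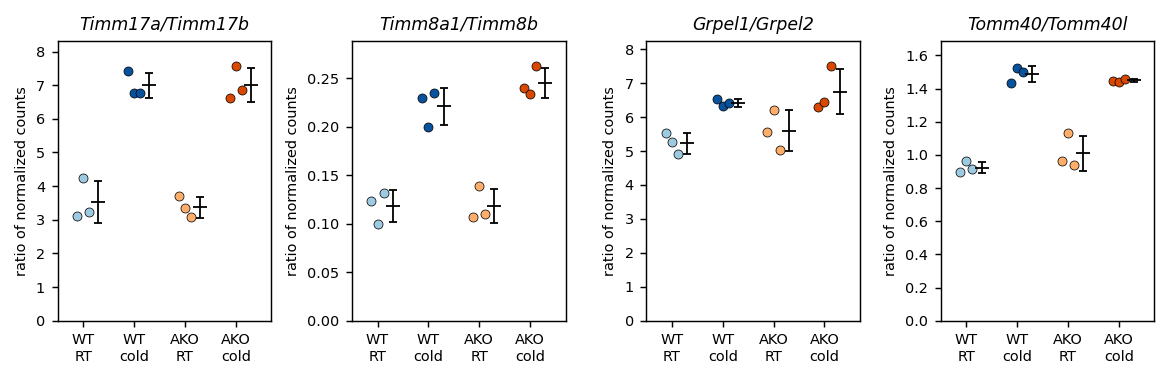
Ratio of the normalized counts of 4 paralog pairs (vertical axis, from 0) in the 12 libraries by genotype and temperature. Points are libraries and bars give mean ± SD of 3. Within each genotype every cold ratio is above every RT ratio, and the ratio of Timm17a to Timm17b moves from at most 4.26 to at least 6.61.

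To compare levels between genes, mean counts were divided by the exon length of the gene in GENCODE vM21 (all exons merged), giving normalized counts per kilobase. At RT in Atf4WT the highest levels were those of Timm8b (2771), Tomm6 (2502) and Tomm7 (1980), and the lowest those of Grpel2 (77.3), Timm9 (100.2) and Timm8a1 (118). After cold in Atf4WT, Timm9 reached 297 and Timm8a1 reached 430.1 counts per kilobase, and their ranks among the 35 genes moved from 34 to 29 and from 33 to 26. Timm10 moved from rank 12 to rank 8 (603 to 1720), Tomm40 from 22 to 15, while Pmpcb moved from 11 to 18 and Immp2l from 23 to 34. On this scale the small TIM genes with large responses were thus among the lower levels at RT, except Timm10. Merged exons include those of every annotated transcript, so these levels and ranks depend on the annotation. In mean counts not divided by length, Timm8a1 (167), Timm9 (429) and Timm10 (491) were the lowest of the 35 genes in Atf4WT at RT.

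No import gene was called between the genotypes. After cold, 0 of 35 genes passed the threshold in limma, edgeR or DESeq2, against 6.4% of all genes in limma, and at RT 0 of 35, against 0.463%. At an unadjusted p under 0.05 in limma there were 2 of 35 genes after cold, against 11.7% of all genes, and 1 of 35 at RT, against 1.53%. After cold these were Pmpcb and Timm21, both higher in Atf4AKO. Pmpcb read 3265, 3584 and 3764 in Atf4WT and 4199.7, 4704 and 4222 in Atf4AKO, which do not overlap (0.31 ± 0.08, adjusted p = 0.113). In DESeq2 the adjusted p of Pmpcb was 0.0169, at a log2 fold change of 0.30, under the fold of 1.5. Timm21 read 1115, 1043 and 1075 against 1167, 1342 and 1366, a separation without overlap as well (0.26 ± 0.08, adjusted p = 0.188). With Pmpca, 3 of 35 genes had all Atf4AKO cold libraries above all Atf4WT cold libraries, against 8.68% of all genes. The gene at RT was Tomm6, at 2647, 3326 and 2515 in Atf4WT and 3886, 3804 and 3156 in Atf4AKO, which overlap (0.36 ± 0.15, adjusted p = 1.00).

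The 95% intervals of the genotype difference lay within a fold of 1.5 for all 35 genes after cold, from -0.52 to 0.55 on the log2 scale, and for 33 of 35 at RT, where Timm13 (-0.12 to 0.83) and Tomm6 (0.028 to 0.69) reached beyond it. The estimate was above 0, that is higher in Atf4AKO, for 35 of 35 genes at RT (51.8% of all genes), with a median of 0.11, and 32 of 35 after cold (59.3%), with a median of 0.12. When single libraries were left out, the median ran from 0.053 (without Atf4AKO RT replicate 1) to 0.14 at RT, where it was 0.056 without Atf4WT RT replicate 2, and from 0.035 (without Atf4AKO cold replicate 1) to 0.17 after cold, where it was 0.051 without Atf4WT cold replicate 2. These genes share libraries, so the counts of signs are a description. Without the 3 libraries with raised muscle markers, the medians were 0.056 at RT and 0.10 after cold, 22 and 29 of 35 estimates were above 0, and 0 genes were called. Shares of all genes were not taken for that fit, so these counts of signs have no background beside them. With the muscle covariate the medians were 0.10 at RT and 0.11 after cold, and again 0 genes were called. With the lymphocyte covariate the median after cold was -0.27, and Timm13 alone was called, lower in Atf4AKO. The share of all genes called with that covariate was not taken.

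**Figure D4:**
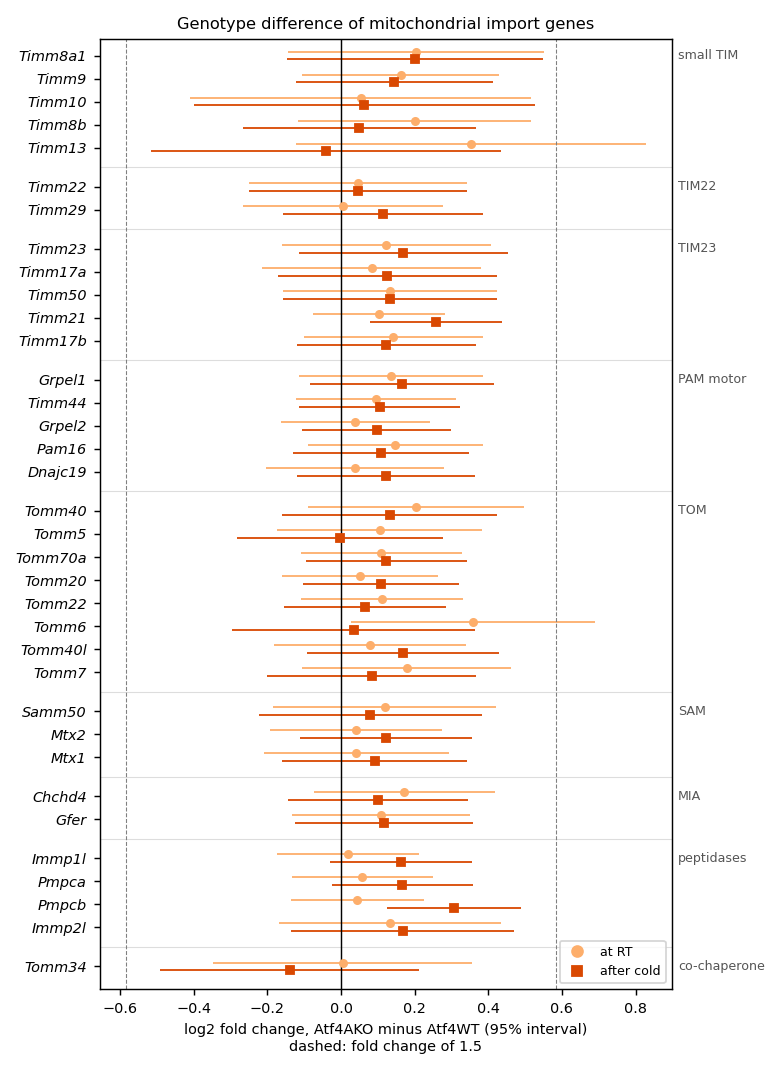
Log2 fold change of Atf4AKO against Atf4WT (horizontal axis) with its 95% interval from limma for the 35 import genes, at RT (circles) and after cold (squares). Dashed lines mark a fold change of 1.5. Every estimate lies between the dashed lines, and at RT all 35 are above 0.

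Whether the genotypes responded differently to cold was tested as an interaction. In limma 0 of the 35 genes were called, against 4.63% of all genes, and 0 were called by edgeR or DESeq2. With the lymphocyte covariate 3 genes (Timm8b, Timm13 and Tomm6) were called, all with a lower response in Atf4AKO, and the median difference was -0.36. The share of all genes called with that covariate was not taken. In limma without it, 559 of all tested genes were called with a lower response in Atf4AKO and 62 with a higher one. A single gene, Pmpcb, had an unadjusted p under 0.05 in limma, against 6.92% of all genes, with a response of -0.05 ± 0.08 in Atf4WT and 0.21 ± 0.08 in Atf4AKO (difference 0.26 ± 0.12, adjusted p = 0.7). The median difference over the 35 genes was 0.01, and 0.075 without the 3 libraries with raised muscle markers, where 0 genes were called. The 95% interval of the difference lay within a fold of 1.5 for 30 of 35 genes, not for Timm10, Timm8b, Timm13, Tomm6 and Tomm34, so for those 5 a difference of that size lay within the interval.

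The libraries that stood lowest or highest in a group did so for most import genes together. Atf4WT RT replicate 2 held the lowest value of its group for 32 of 35 genes, and Atf4AKO cold replicate 1 the highest for 30 of 35, and both had raised muscle markers. Atf4WT cold replicate 0, with raised muscle markers, was highest for 26 genes, and Atf4WT cold replicate 2, which had the highest B cell markers, was lowest for 30. Libraries without raised muscle markers also stood apart in this way, since Atf4AKO RT replicate 1 was highest for 29 genes and Atf4AKO cold replicate 0 lowest for 25. The part of muscle or lymphocyte RNA in these levels was not tested beyond the fits given above.

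**Figure D5:**
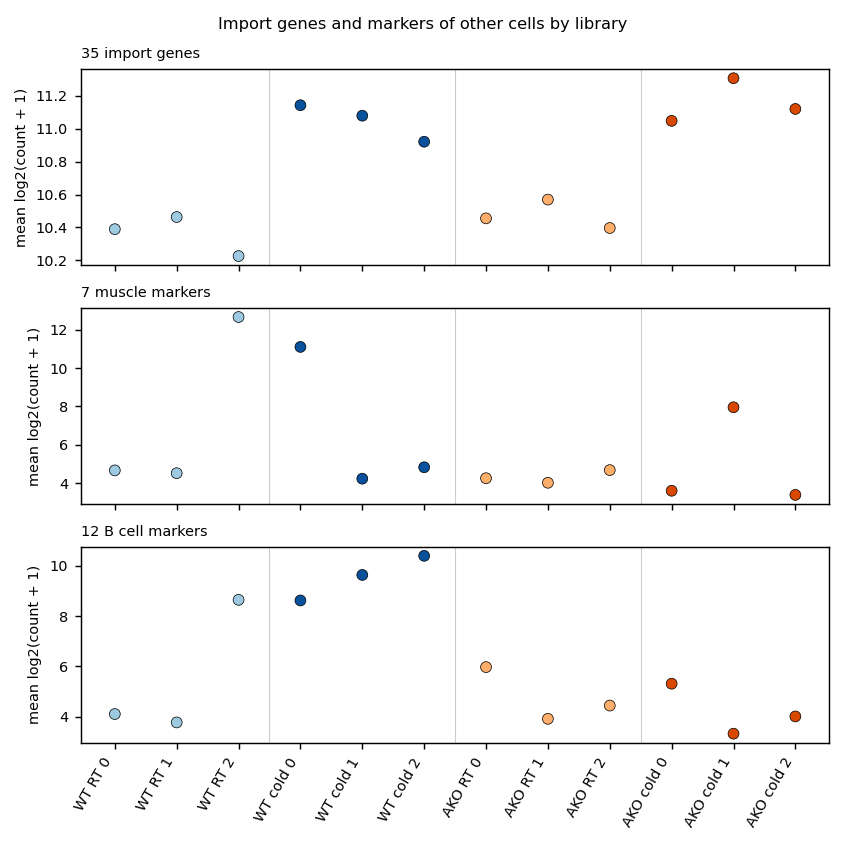
Mean log2(normalized count + 1) of the 35 import genes, 7 muscle markers and 12 B cell markers (vertical axes) in each of the 12 libraries, coloured by group. The import genes run from 10.23 to 10.57 at RT and from 10.92 to 11.31 after cold, and muscle markers reach 7.96 or more in 3 libraries.

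Another 17 listed genes that work beside the translocases were gathered in a list of their own. Of these, 9 were called higher after cold in Atf4WT, against 10.9% of all genes, and 12 in Atf4AKO, against 8.3%. In both genotypes, 9 were called higher and 0 lower, where 1387 (Atf4WT) and 1196 (Atf4AKO) of 13404 tested genes were called lower. The 9 were the chaperones Hspa9 (1.03 and 0.95), Hspd1 (0.64 and 0.66) and Hspe1 (0.93 and 0.84), the insertase Oxa1l (0.78 and 0.83), the J-domain proteins Dnajc11 (1.30 and 1.29) and Dnajc15 (0.71 and 0.73), and the MICOS cristae genes Chchd3 (0.71 and 0.76), Apoo (0.99 and 1.03) and Micos10 (0.91 and 1.03). Hspa9, the Hsp70 of the motor, thus rose along with its partners Grpel1 and Timm44. Aifm1 (0.59), Immt (0.67) and Micos13 (0.60) were called in Atf4AKO alone, where their changes in Atf4WT were 0.51, 0.52 and 0.54, and the peptidases Pitrm1 (-0.25 and -0.03) and Xpnpep3 (0.18 and 0.35) were not called. The MICOS genes Chchd6 (0.03 and 0.20) and Apool (0.04 and 0.15), and Romo1 (0.34 and 0.23), were not called either. Without the 3 libraries with raised muscle markers, 6 of the 17 were called in Atf4WT and 8 in Atf4AKO, and the share of all genes in that fit was not taken. Between the genotypes 0 of the 17 were called by limma, edgeR or DESeq2 after cold, at RT or in the interaction, against 6.4%, 0.463% and 4.63% of all genes in limma, with 1 (Xpnpep3) at an unadjusted p under 0.05 after cold.

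Some import genes share exon sequence with a coding gene on the other strand in GENCODE. Of the paralogs compared above, these were Timm8b (Nkapd1), Grpel1 (Tada2b), Tomm40l (Nr1i3) and Timm17b (Gm10491), so every pair holds such a gene. The others were Timm13 (Tmprss9), Timm9 (Tomm20l), Dnajc19 (Fxr1), Tomm70a (Nit2), Pam16 (Glis2), Pmpca (Inpp5e), Mtx1 (Thbs3), Timm29 (Yipf2) and Tomm6 (Usp49). Tomm6 also shares exon sequence with Gm21981 on its own strand. The libraries were made with a strand-specific kit, but the strand setting of the counting is not stated. Whether reads of such partners were counted for the import gene is therefore not known here. The overlaps are those of GENCODE, while the counted genes carry RefSeq accessions.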

How the data were processed

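Polyadenylated RNA of iWAT was measured in 12 libraries, 3 in each of 4 groups taken from the labels. The authors cleaned the reads (SOAPnuke), aligned them to mm10 (STAR), counted unique alignments by gene (featureCounts) and divided the counts by DESeq2 size factors. The deposited values are this normalized signal, and the versions and the strand setting are not given in the sources used here. Dividing by the smallest value of each library recovered whole reads for 100.0% of the values (largest deviation 0.000313 reads), so a gene without reads in some library is not listed.

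The main test was limma 3.58.1 (R 4.3.3, eBayes with trend) on log2(normalized count + 1), a scale that understates changes of low genes, with 4 group means, over 13404 genes whose mean reached 10. P-values were adjusted by Benjamini-Hochberg over all of them. Fold changes carry the SE of this fit, and p-values measure only the spread between these libraries. edgeR 4.0.16 (quasi-likelihood, TMM) and DESeq2 1.42.0 on the recovered reads, other pseudocounts, filters and scaling, a replicate block, a lymphocyte covariate and leaving out each library were the alternatives. Leaving out 3 libraries with muscle markers and a muscle covariate were added after seeing the data. On counts simulated for Atf4AKO against Atf4WT after cold (13361 genes), limma recovered 197 of 200 changed genes and called 246 of 13161 unchanged ones. That recovery holds only for the size of change and the genes simulated. It is no measure of power for differences near the fold threshold. The planned description of proteins was not made.

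The import genes, the gene lists and the paralog pairs were chosen with earlier results of these data known. Values in every library are given for genes called in both cold responses, in the genotype comparisons or for the paralog pairs. Other genes of the list are summarised.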

Additional observations from a re-analysis of the deposited data

How the results depend on the processing

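The median log2 fold change of the import genes after cold in Atf4WT was 0.98 with the lymphocyte covariate and 0.49 without the 3 libraries with raised muscle markers, against 0.70, and ran from 0.57 (without Atf4WT RT replicate 2) to 0.75 when single libraries were left out. With the lymphocyte covariate, 1 gene (Timm13) was called between the genotypes after cold, with a median of -0.27, and 3 (Timm8b, Timm13 and Tomm6) in the difference of responses, with a median of -0.36. These counts have no share of all genes beside them, since it was not taken for that fit. B cell markers were raised in all Atf4WT cold libraries, and T cell markers in Atf4WT cold replicates 1 and 2. The lymphocyte covariate and that group therefore cannot be fully told apart. Counts of called genes after cold stayed between 16 and 28 in Atf4WT and between 18 and 22 in Atf4AKO over all alternatives. The replicate block gave 21 genes in each genotype, and no genotype call. Same-numbered libraries did not deviate together throughout (correlations of -0.189 to 0.389), so the numbers were not taken as pairs. Among the cold responses of single genes, the direction turned for Timm17b, Pmpcb and Tomm7. For Timm17b in Atf4WT the change was -0.0219 with 75th percentile scaling, -0.0161 in edgeR and -0.0505 without the libraries with muscle markers, and from -0.057 to 0.081 without single libraries, and in Atf4AKO from -0.066 to 0.075. Pmpcb in Atf4WT changed by 0.026 with the lymphocyte covariate and by -0.11 to 0.0080 without single libraries. Tomm7 in Atf4AKO changed by -0.055 without the libraries with muscle markers and by -0.055 to 0.21 without single libraries. Apart from leaving out single libraries, 878 further values of single genes and paralog pairs kept their direction and call, 13 lost the call and 7 gained it.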
